A study of Mus musculus with 8 samples.

Results

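The genes of the autophagy machinery and its cargo receptors were followed in AML12 cells in which the initiator caspase gene Casp8 was silenced with siRNA. The genes were taken by name: 40 listed symbols were looked up in the deposited table, and all 40 were found among its 34945 named genes. The 4 siCasp8 cultures received Casp8 siRNAs and are given the genotype Casp8 knockdown in the labels, and the 4 Scr cultures received a scrambled control siRNA and are labelled WT. Both groups were transfected with 40 nM siRNA and the lipid reagent Lipofectamine RNAiMAX in 24-well plates, and RNA was collected after 48 hours. AML12 is an established mouse hepatocyte line made from an animal that carried a human TGF-alpha transgene, so all 8 cultures share that background. They were grown in DMEM/F12 medium with heat-inactivated serum and antibiotics, and poly-A RNA was sequenced. All 8 are cultures of 1 line, the design text calls the 4 of each group biological replicates, and no source used here gives the siRNA sequences. The comparison asks which RNA levels differ in these hepatocyte-like cells when Casp8 is silenced.

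Autophagy encloses cytoplasm in a double membrane, the autophagosome, and delivers it to the lysosome for breakdown. The ULK1 kinase complex starts the process, a class III phosphatidylinositol 3-kinase complex marks the membrane with PI3P, ATG9 vesicles and the lipid transfer proteins ATG2A and ATG2B supply lipid, and 2 ubiquitin-like conjugation systems attach the small ATG8 proteins (the LC3 and GABARAP families) to phosphatidylethanolamine. ATG8 proteins on the membrane hold receptors such as p62, which carry cargo, and are themselves consumed in the lysosome. In liver the pathway is known for supplying amino acids and fat during fasting and for clearing mitochondria and protein aggregates. RNA levels do not measure the flux of this process.

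Values are the deposited normalized expression values per gene, which have no unit of their own. Fold changes are siCasp8 over Scr on log2(value + 1), and a gene was called higher or lower at a Benjamini-Hochberg adjusted p under 0.05 in limma's test over the 14154 genes with a mean of at least 10. The target responded: Casp8 had 1374, 1431, 1627 and 1489.7 in the 4 siCasp8 cultures, against 3936, 3995, 4134 and 3825 in the 4 Scr cultures. The groups did not overlap, and 37.3% of the Scr mean was left in siCasp8 cultures (log2 fold change -1.43, SE 0.05, adjusted p = 5.94e-09; exact two-sided permutation p = 0.0286, the smallest that 4 against 4 allows). Depth estimated from the spacing of low values was 50.5 to 57.1 M reads in siCasp8 and 30.7 to 51.8 M reads in Scr libraries, so depth moves with the groups. Scr replicate 4 was the deepest Scr library at 51.8 M reads, and Scr replicates 1, 2 and 3 had 31.5, 30.7 and 38.3 M reads. Summed hepatocyte markers ranged from 152748 to 156172 in siCasp8 and from 142577 to 151083 in Scr cultures. Of the 11 markers, Ahsg was at 0 in every library, and of the 10 tested 5 were called higher and 2 lower, Krt8 (log2 fold change -0.31, adjusted p = 4.44e-05) and Apob (log2 fold change -0.25, adjusted p = 0.00277). Hnf4a had 6944 ± 106 in siCasp8 and 6535 ± 430.1 in Scr cultures (not called, adjusted p = 0.132), and albumin (Alb) had 3626 ± 249 in siCasp8 and 86.4 ± 10.7 in Scr cultures (log2 fold change 5.38, adjusted p = 4.13e-12). Cholangiocyte markers, 7 genes led by Spp1 at 104055 ± 3658 in siCasp8 and 89795 ± 3642 in Scr cultures, summed to 129229 to 136579 in siCasp8 and 114618 to 123301 in Scr cultures. Markers of other liver cell types were low: 7 stellate and fibroblast markers, led by Col1a1, summed to 96.1 to 172 in siCasp8 and 116 to 171 in Scr cultures. The 6 macrophage markers, led by Csf1r and with Adgre1, Clec4f and Marco at 0, summed to 578 to 654 in siCasp8 and 779 to 848 in Scr cultures. The 6 endothelial markers, led by Pecam1 and with Cdh5 and Lyve1 at 0, summed to 178 to 301 in siCasp8 and 186 to 536 in Scr cultures. The part of these marker shifts in the results was not tested, and fewer cells of a type cannot be told apart from less RNA per cell in bulk RNA.

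The ATG8 family carries the largest rise among the 40 genes, and its 5 members are close enough in sequence that reads could in principle be shared between them. Their coding ends, the last 45 bases of each coding sequence in the GENCODE annotation of GRCm38, are shown because each holds the codon of the glycine that the ATG4 proteases expose and that is joined to the lipid. Capitals mark that codon, which is codon 120 in both LC3 genes and codon 116 in the 3 GABARAP genes.
Map1lc3a: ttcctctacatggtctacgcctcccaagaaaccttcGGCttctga
Map1lc3b: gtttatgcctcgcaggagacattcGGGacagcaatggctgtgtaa
Gabarap: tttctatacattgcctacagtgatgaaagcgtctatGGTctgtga
Gabarapl1: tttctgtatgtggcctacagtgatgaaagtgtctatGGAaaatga
Gabarapl2: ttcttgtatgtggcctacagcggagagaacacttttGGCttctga
Map1lc3b has 5 codons between the glycine and the stop codon, and the other 4 genes have 1. Coding sequences were 77.5% identical between Map1lc3a and Map1lc3b and 74.9% between Gabarap and Gabarapl1, and from 54.4% to 64.9% in the remaining pairs. No pair of the 10 shared a run of 31 bases, the word length with which kallisto by default assigns reads. Their levels are therefore described gene by gene.

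The starts of Gabarapl1 and Sqstm1 are shown because these genes had the largest rises of the ATG8 family and of the receptors, and that of Atg14 because it was the called gene whose window held the CLEAR core word CACGTG, which TFEB and TFE3 bind. Each is the RefSeq window from 250 bases before to 50 bases after the annotated start, in the build GRCm38.p6, written along the gene's strand. Capitals mark the word.
Gabarapl1, chr6:129532942-129533241, plus strand: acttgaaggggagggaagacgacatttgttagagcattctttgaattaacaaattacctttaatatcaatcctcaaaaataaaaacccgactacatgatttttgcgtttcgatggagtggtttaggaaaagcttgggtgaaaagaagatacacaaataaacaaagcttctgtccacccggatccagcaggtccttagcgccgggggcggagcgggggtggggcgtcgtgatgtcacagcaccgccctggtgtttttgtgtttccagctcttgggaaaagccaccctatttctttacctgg
Sqstm1, chr11:50210771-50211070, minus strand: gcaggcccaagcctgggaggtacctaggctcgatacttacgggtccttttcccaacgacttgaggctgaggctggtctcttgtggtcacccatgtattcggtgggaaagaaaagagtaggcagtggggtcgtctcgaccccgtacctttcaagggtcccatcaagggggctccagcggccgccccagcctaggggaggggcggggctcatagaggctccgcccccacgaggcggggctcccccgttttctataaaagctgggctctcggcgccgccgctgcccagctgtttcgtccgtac
Atg14, chr14:47568385-47568684, minus strand: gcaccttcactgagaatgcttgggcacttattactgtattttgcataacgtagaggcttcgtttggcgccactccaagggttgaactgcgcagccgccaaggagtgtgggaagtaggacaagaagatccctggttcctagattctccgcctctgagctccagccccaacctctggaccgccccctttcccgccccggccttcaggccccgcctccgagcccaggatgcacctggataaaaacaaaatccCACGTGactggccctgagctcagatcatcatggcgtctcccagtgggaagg
In Atg14 the word begins 1 base before the start. RefSeq windows were matched for 32 of the 40 genes, 36 windows in all. CACGTG, which reads the same on both strands, occurred in 4 of the 36 (11.1%; Atg14, Atg3, Atg5 and Atg7), against 9.42% of the 13539 windows of tested genes. The antioxidant response core TGACNNNGC, searched on both strands, occurred in 4 of 36 (11.1%; Atg13, Map1lc3b, Tax1bp1 and Ulk2), against 13.9% of windows of tested genes. The FOXO word GTAAACA and the ATF4 and CHOP word TGATGNAA, also searched on both strands, occurred in 0 of 36, against 2.78% and 2.56% of windows of tested genes. A match describes letters only, and no match says only that these letters are not in the window.

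Of the 40 autophagy genes, all of which passed the filter on low values, 11 were called higher in siCasp8 cells and 6 lower, and 23 did not pass the test. The rises were led by the ATG8 gene Gabarapl1, and the falls by the PI3-kinase subunit Uvrag and the receptor Tax1bp1. In all, 42.5% of the autophagy genes were called, against 40.2% of all tested genes. By direction, 27.5% were called higher, against 19.4% of all tested genes, and 15% lower, against 20.8%. The 4 siCasp8 and 4 Scr values did not overlap for 14 of the 40 genes (35%, 10 higher and 4 lower), against 37.5% of all tested genes. The shares called in either direction and without overlap thus lie near the background. The median log2 fold change was 0.01 for the 40 genes and 0.00 for all tested genes, and the median size of the change regardless of sign was 0.11 for the 40 and 0.16 for all. Rescaling the libraries to a common upper quartile of values above 0 moved the median of all genes by 0.10. That quartile depends on how many genes are above 0, which was 18706 to 18947 in siCasp8 and 17718 to 18565 in Scr libraries. The rescaling gave 19 autophagy genes higher and 0 lower (2 lower at an unadjusted p under 0.05 in limma). Over all genes it gave 4471 higher and 1665 lower. An upper quartile over the tested genes moved the median of all genes by 0.03. It gave 12 autophagy genes higher and 2 lower (3148 and 2535 over all). Quantile normalization gave 11 autophagy genes higher and 3 lower (2968 and 2672 over all). None of the 17 called genes changed sign under these scalings.

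**Figure D1:**
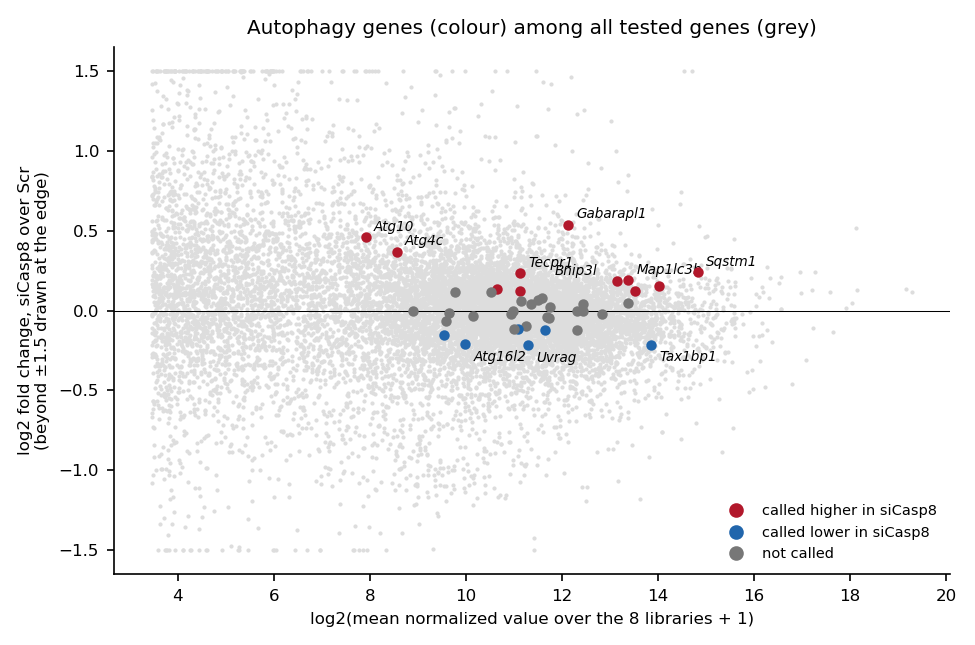
Each dot is 1 tested gene, with log2 of its mean normalized value over the 8 libraries plus 1 on the x axis and its log2 fold change, siCasp8 over Scr, on the y axis. The 40 autophagy genes are coloured by call over 14154 tested genes in grey, and their changes run from -0.22 to 0.54.

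The 23 genes that did not pass the test had log2 fold changes between -0.12 and 0.12, and their 95% intervals lay between -0.25 and 0.26. None of the 23 had groups that stood apart. Among them Becn1 shares 48.2% of its 31-base words with other annotated genes, chiefly the overlapping Cntd1 on the opposite strand, and Atg9a 36.6%, Rb1cc1 22.9%, Gabarapl2 21.3% and Atg4d 20.4%, so the levels of these genes are uncertain. Levels can be compared between genes as mean values per kilobase of the longest coding transcript, a scale that takes the transcript used as given. On it Sqstm1, the gene of p62, was highest, at 11781 in siCasp8 and 9985 in Scr cultures. Gabarap followed at 9063 in siCasp8 and 8320.3 in Scr cultures. Tax1bp1 was at 4195 in siCasp8 and 4864 in Scr cultures and Map1lc3b at 4309 in siCasp8 and 3780.0 in Scr cultures, so that the order of these 2 genes differs between the groups. Receptors and ATG8 genes filled the top 9 places in Scr cultures. The lowest was Epg5, at 83 in siCasp8 and 84.04 in Scr cultures.

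**Figure D2:**
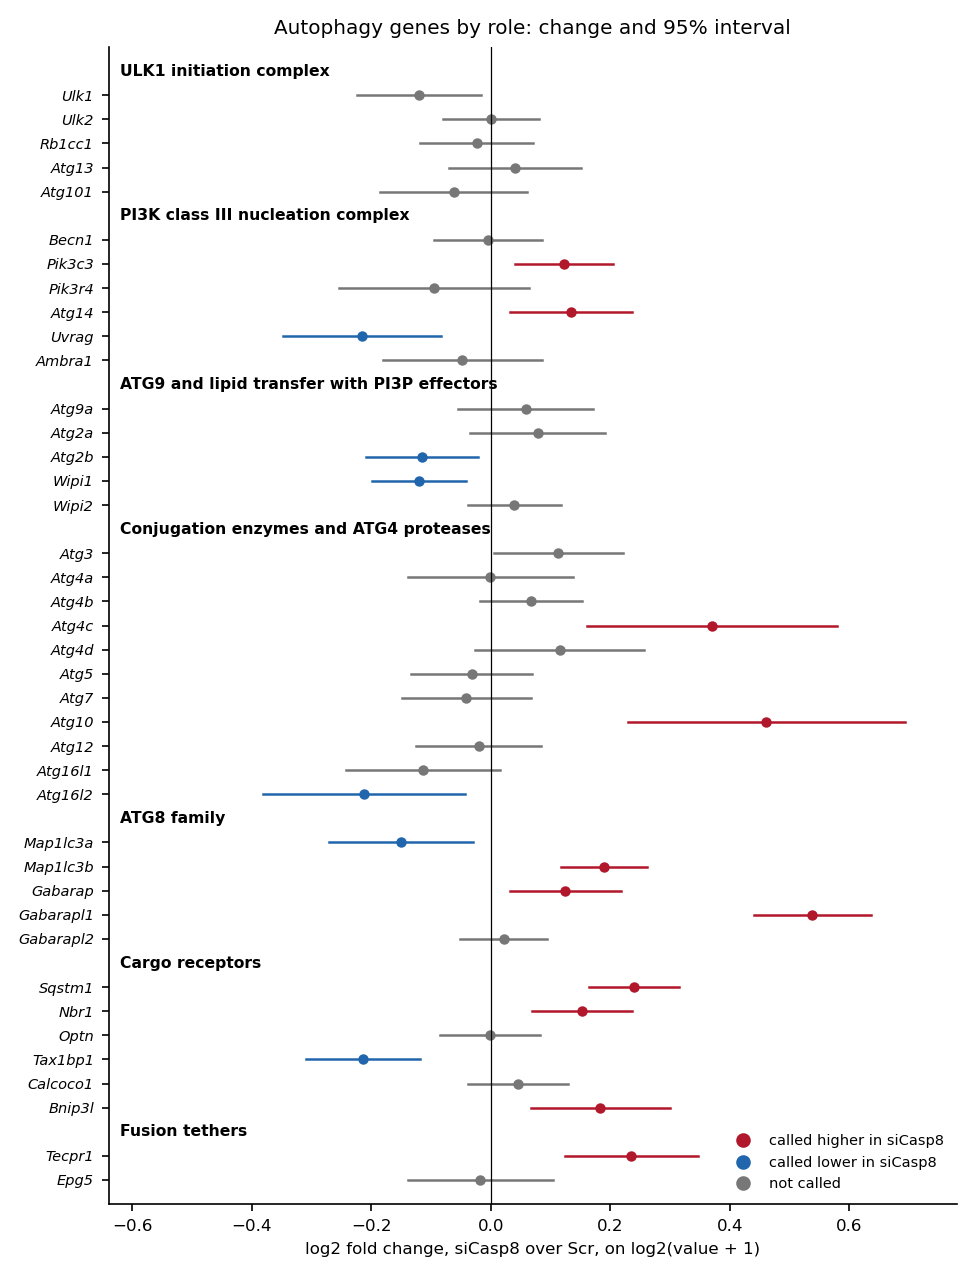
Points are the log2 fold changes, siCasp8 over Scr, of the 40 genes grouped by role, and bars are their 95% intervals from limma. The rises of Gabarapl1 (0.54), Atg10 (0.46) and Atg4c (0.37) stand to the right of the others, and in the ULK1 complex the interval of Ulk1 lies under 0 (-0.22 to -0.02) while those of the other 4 genes include 0.

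The ULK1 initiation complex showed 0 of 5 genes called by limma, against 40.2% of all tested genes. Of the 5, 1 gene, Ulk1, was lower at an unadjusted p under 0.05. Ulk1, the kinase itself, had 4906, 4831, 4809 and 5077 in the 4 siCasp8 cultures, against 5456, 5682, 4832 and 5399 in the 4 Scr cultures. Its 4 siCasp8 values all lay under the Scr mean, but the groups overlapped at Scr replicate 3. The log2 fold change was -0.12 (95% interval -0.22 to -0.02), with an adjusted p of 0.0616. Without Scr replicate 3 the adjusted p was 0.00330, and with the replicate number as a block it was 0.0371. Ulk2, its paralogue, averaged 5557 ± 167 in siCasp8 and 5556 ± 179.7 in Scr cultures, and the log2 fold change was 0.00 (95% interval -0.08 to 0.08). Rb1cc1, the scaffold FIP200, averaged 7229 ± 329 in siCasp8 and 7349.6 ± 334 in Scr cultures. Atg13, which bridges kinase and scaffold, averaged 2673 ± 145 in siCasp8 and 2600.3 ± 137 in Scr cultures, and Atg101, which stabilizes ATG13, averaged 754 ± 18.2 in siCasp8 and 788 ± 41.7 in Scr cultures. The log2 fold changes of these 4 lay between -0.06 and 0.04, with intervals that reach from -0.19 to 0.15.

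In the class III PI3-kinase complex the catalytic subunit and the subunit for autophagosomes rose and the subunit for endosomes fell. Of the 6 genes, 2 were called higher and 1 lower, against 19.4% of all tested genes called higher and 20.8% lower. Pik3c3, the kinase VPS34, had 2349, 2343, 2374 and 2318 in the 4 siCasp8 cultures, against 2076, 2188, 2154 and 2209 in the 4 Scr cultures. The groups did not overlap, and the gene rose by 8.78% (log2 fold change 0.12, SE 0.04, adjusted p = 0.0213). Atg14, which brings the kinase to the site of autophagosome formation, had 1728, 1646, 1718 and 1649.6 in the 4 siCasp8 cultures, against 1435, 1537, 1566 and 1609 in the 4 Scr cultures. Here too every siCasp8 value was above every Scr value, a rise of 9.66% (log2 fold change 0.13, SE 0.05, adjusted p = 0.0387). Uvrag, which takes the place of ATG14 in the complex acting on endosomes and late autophagosomes, had 2223, 2379, 2423 and 2199.8 in the 4 siCasp8 cultures, against 2779.6, 2801, 2807 and 2348 in the 4 Scr cultures. Scr replicates 1 to 3 lay together, replicate 4 reached down into the siCasp8 range, and Uvrag fell by 14.1% (log2 fold change -0.22, SE 0.06, adjusted p = 0.0133). Becn1, the subunit common to both complexes, did not pass the test, at 5070.0 ± 232 in siCasp8 and 5085 ± 183 in Scr cultures. Pik3r4, the VPS15 subunit (2366 ± 209 in siCasp8 and 2529 ± 243 in Scr cultures), and Ambra1, a scaffold that links the complex to other regulators (3362 ± 174 in siCasp8 and 3482 ± 305 in Scr cultures), did not pass it either. The Pik3c3 call was lost without siCasp8 replicate 1, 2 or 3 or Scr replicate 1 (adjusted p 0.0513 to 0.0586), and the Atg14 call without any 1 of the siCasp8 replicates or Scr replicate 1 or 2 (adjusted p 0.0546 to 0.105). With depth as a covariate none of the 3 was called, Pik3c3 at 0.09, adjusted p = 0.337, Atg14 at 0.07, adjusted p = 0.570 and Uvrag at -0.05, adjusted p = 0.710.

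Among the lipid supply and PI3P effector genes, 2 of 5 fell by a small amount and 0 rose (0 also at an unadjusted p under 0.05 in limma). The shares over all tested genes were 20.8% called lower and 19.4% called higher. Wipi1, a PI3P-binding protein of the growing membrane, had 3011, 3045, 3189 and 3099 in the 4 siCasp8 cultures, against 3254, 3359, 3366 and 3436 in the 4 Scr cultures. Its groups did not overlap, and the gene fell by 7.98% (log2 fold change -0.12, SE 0.04, adjusted p = 0.0191). Atg2b, a lipid transfer protein, had 2078, 2005, 2077 and 2132 in the 4 siCasp8 cultures, against 2263, 2185, 2165 and 2374 in the 4 Scr cultures. Those groups stood apart by a narrow margin, and the gene fell by 7.72% (log2 fold change -0.12, SE 0.04, adjusted p = 0.0485). The paralogues of both did not pass the test: Wipi2 averaged 5646 ± 150.1 in siCasp8 and 5496 ± 167 in Scr cultures, and Atg2a averaged 3166 ± 169 in siCasp8 and 2999 ± 172 in Scr cultures. Whether Atg2b and Atg2a or Wipi1 and Wipi2 differ in their change was not tested. Atg9a, the membrane protein of the lipid-carrying vesicles, averaged 2302 ± 91.2 in siCasp8 and 2213 ± 145 in Scr cultures. The Wipi1 call was lost without siCasp8 replicate 1 or 2 or Scr replicate 4 (adjusted p 0.0571 to 0.0615), and the Atg2b call without any 1 of the siCasp8 replicates or Scr replicate 1 or 4 (adjusted p 0.0554 to 0.141). Under each of the 3 rescalings and with depth as a covariate neither gene was called (adjusted p with depth 0.0820 for Wipi1 and 0.0893 for Atg2b).

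The conjugation enzymes and ATG4 proteases held 2 of the 3 largest rises among the 40 genes, both in genes of low level per kilobase. Of the 11 genes, 2 were called higher and 1 lower, against 19.4% of all tested genes called higher and 20.8% lower. Atg10, the E2-like enzyme that joins ATG12 to ATG5, had 283, 293, 244 and 295 in the 4 siCasp8 cultures, against 176, 234, 196 and 204 in the 4 Scr cultures. Every siCasp8 value was above every Scr value, and the level was 37.5% higher (log2 fold change 0.46, SE 0.11, adjusted p = 0.00425). Atg4c, one of the proteases that trim and recycle ATG8 proteins, had 423, 387, 482 and 409 in the 4 siCasp8 cultures, against 296, 309.6, 379 and 333 in the 4 Scr cultures. Its groups stood apart by a narrow margin, at a level 29.2% higher (log2 fold change 0.37, SE 0.10, adjusted p = 0.00852). Atg16l2, a paralogue of the scaffold ATG16L1, had 894, 1032, 898 and 916 in the 4 siCasp8 cultures, against 1147, 924, 1102 and 1170.3 in the 4 Scr cultures. The siCasp8 replicate 2 and Scr replicate 2 values crossed, so the groups overlapped, and the gene fell by 13.9% (log2 fold change -0.21, SE 0.08, adjusted p = 0.0465). Atg16l1, the scaffold on which the conjugate acts, averaged 1978 ± 98.2 in siCasp8 and 2143 ± 167 in Scr cultures and did not pass the test (adjusted p = 0.148).

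The other 7 enzymes did not pass the test. Among them are the E1-like enzyme Atg7, the E2-like Atg3, the ubiquitin-like Atg12 and its partner Atg5, and the proteases Atg4a, Atg4b and Atg4d. Atg3 came closest, at 1536 ± 61.2 in siCasp8 and 1420.1 ± 66.4 in Scr cultures, with a log2 fold change of 0.11 (95% interval 0.00 to 0.22) and an adjusted p of 0.0906. Atg7 averaged 3249.8 ± 28.4 in siCasp8 and 3351 ± 253 in Scr cultures, Atg5 averaged 1125 ± 27.2 in siCasp8 and 1150.2 ± 35.6 in Scr cultures, and Atg12 averaged 1957 ± 67.2 in siCasp8 and 1986 ± 103 in Scr cultures. Atg4b, the main protease of the family in most cells, averaged 2952 ± 112 in siCasp8 and 2816 ± 56.4 in Scr cultures. Atg4d averaged 905 ± 31.7 in siCasp8 and 837 ± 68.9 in Scr cultures, and Atg4a averaged 476 ± 8.36 in siCasp8 and 477 ± 23.2 in Scr cultures. Of the 31-base words of Atg4a, 74.9% also occur in other annotated genes, chiefly the pseudogene Atg4a-ps, which is listed at 0 in all libraries, so the share of its reads is uncertain. With depth as a covariate Atg10 (0.44, adjusted p = 0.107) and Atg4c (0.30, adjusted p = 0.220) were not called, while Atg16l2 was (-0.37, adjusted p = 0.0384). The Atg16l2 call was lost without siCasp8 replicate 1, 3 or 4 or Scr replicate 1, 3 or 4 (adjusted p 0.0832 to 0.126), and under each of the 3 rescalings, and Atg16l1 was called lower without Scr replicate 2 (adjusted p = 0.0371).

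Of the ATG8 family, 3 of 5 genes rose and 1 fell, against 19.4% of all tested genes called higher and 20.8% lower. Gabarapl1 (chr6:129533160-129542346, plus strand, GRCm38), whose coding end and start are shown above and whose product binds receptors and acts late in autophagosome maturation, had 5400.3, 5376, 5320.3 and 5016 in the 4 siCasp8 cultures, against 3353, 3703, 3687 and 3811 in the 4 Scr cultures. The lowest siCasp8 culture was well above the highest Scr culture, and the level was 45.1% higher (log2 fold change 0.54, SE 0.04, adjusted p = 1.80e-06). Map1lc3b (chr8:121590361-121598760, plus strand), the gene of LC3B, had 11024, 11564, 11583 and 11213 in the 4 siCasp8 cultures, against 9841, 10305, 9659 and 10006 in the 4 Scr cultures. Its groups did not overlap, a rise of 14% (log2 fold change 0.19, SE 0.03, adjusted p = 6.77e-04). Gabarap (chr11:69991143-69994951, plus strand), the founding member of its subfamily, had 12737, 12274, 12236 and 11729 in the 4 siCasp8 cultures, against 11465, 11829, 11275 and 10394 in the 4 Scr cultures. The groups overlapped, siCasp8 replicate 4 lying under Scr replicate 2, with a rise of 8.93% (log2 fold change 0.12, SE 0.04, adjusted p = 0.0354). Map1lc3a, the gene of LC3A and the lowest of the 5 per kilobase, had 703, 714, 712 and 692 in the 4 siCasp8 cultures, against 791, 834, 739 and 772 in the 4 Scr cultures. All 4 siCasp8 values were under the Scr values, and the gene fell by 10.01% (log2 fold change -0.15, SE 0.06, adjusted p = 0.0470). Gabarapl2, which shares its subfamily with Gabarap, averaged 3466 ± 42.3 in siCasp8 and 3415 ± 63.9 in Scr cultures and did not pass the test, with a log2 fold change of 0.02 (95% interval -0.05 to 0.09).

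Shares of the family's summed level per kilobase give the balance among the 5 genes, and a gene's share depends on the other 4. Gabarapl1 made up 15.3 ± 0.180% in siCasp8 and 11.9 ± 0.767% in Scr cultures (SD, n = 4 each), with a lowest siCasp8 share of 15.02% and a highest Scr share of 12.8%. Gabarap was the largest part at 47.8 ± 0.739% in siCasp8 and 49.4 ± 1.605% in Scr cultures, followed by Map1lc3b at 22.7 ± 0.690% in siCasp8 and 22.5 ± 0.550% in Scr cultures. Gabarapl2 held 10.9 ± 0.133% in siCasp8 and 12.1 ± 0.432% in Scr cultures, and Map1lc3a held 3.34 ± 0.0466% in siCasp8 and 4.18 ± 0.142% in Scr cultures. Scaling of the libraries cancels in these shares. In Scr cultures Gabarapl1 and Gabarapl2 lay side by side, and in siCasp8 cultures Gabarapl1 was the higher of the 2. With depth as a covariate Gabarapl1 (0.47, adjusted p = 7.57e-04), Map1lc3b (0.20, adjusted p = 0.0267) and Gabarap (0.25, adjusted p = 0.00503) were still called, and Map1lc3a was not (-0.09, adjusted p = 0.535). The Gabarap call was lost without siCasp8 replicate 1, 2 or 3 or Scr replicate 4 (adjusted p 0.0655 to 0.107), with no filter (0.0555) and with no variance trend (0.0865), and the Map1lc3a call without any 1 of the siCasp8 replicates or Scr replicate 1, 2 or 4 (adjusted p 0.0724 to 0.112). Of the 31-base words of Gabarapl1, 25.2% also occur in the opposite-strand gene 1700101I11Rik, and whether the libraries were read by strand is unknown from the sources used here.

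**Figure D3:**
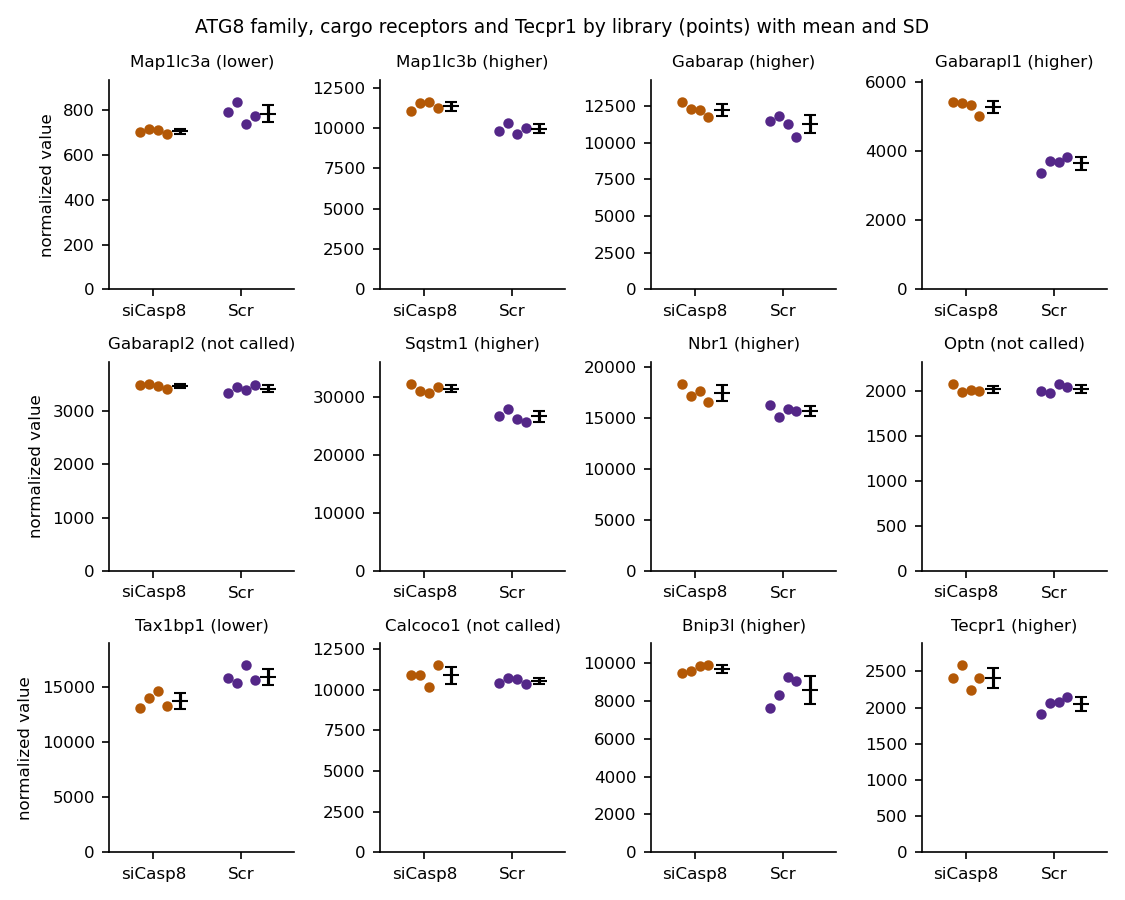
Each panel is 1 gene of the ATG8 family, the cargo receptors or Tecpr1, with normalized value on the y axis from 0, points for the 4 siCasp8 (left) and 4 Scr (right) libraries, and the mean with its SD. Gabarapl1, Sqstm1, Map1lc3b, Nbr1, Bnip3l and Tecpr1 lie above Scr without overlap, Tax1bp1 and Map1lc3a lie under it without overlap, Gabarap was called higher with overlap, and Gabarapl2, Optn and Calcoco1 were not called.

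The cargo receptors split, with 3 of 6 higher and 1 lower, against 19.4% of all tested genes higher and 20.8% lower. Sqstm1 (chr11:50199366-50210827, minus strand), the gene of p62, the receptor of ubiquitinated cargo, had 32284, 31138, 30776 and 31768 in the 4 siCasp8 cultures, against 26713, 28019, 26281 and 25749.8 in the 4 Scr cultures. Its groups did not overlap, with a rise of 17.99% (log2 fold change 0.24, SE 0.03, adjusted p = 1.59e-04). Nbr1 (chr11:101552149-101581951, plus strand), which works with p62 on aggregates and peroxisomes, had 18297, 17136, 17646 and 16568 in the 4 siCasp8 cultures, against 16192, 15020.4, 15830.5 and 15602 in the 4 Scr cultures. The lowest siCasp8 value was above the highest Scr value, a rise of 11.2% (log2 fold change 0.15, SE 0.04, adjusted p = 0.00689). Bnip3l (chr14:66985239-67008877, minus strand), the mitochondrial receptor NIX, had 9472, 9548, 9854 and 9861 in the 4 siCasp8 cultures, against 7632, 8299.5, 9249.6 and 9030.3 in the 4 Scr cultures. The Scr values were spread more widely than the siCasp8 values but stayed under them, a rise of 13.2% (log2 fold change 0.18, SE 0.05, adjusted p = 0.0161). Tax1bp1 (chr6:52713729-52766780, plus strand), another receptor of ubiquitinated cargo, had 13091, 14058, 14651 and 13319.6 in the 4 siCasp8 cultures, against 15855, 15387, 17004 and 15673 in the 4 Scr cultures. Its siCasp8 values all lay under the Scr values, and the gene fell by 13.8% (log2 fold change -0.21, SE 0.04, adjusted p = 0.00190).

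Neither Optn, a receptor for bacteria and damaged mitochondria (2025 ± 40.8 in siCasp8 and 2027 ± 44.6 in Scr cultures), nor Calcoco1, a receptor for endoplasmic reticulum (10866 ± 536 in siCasp8 and 10519 ± 179 in Scr cultures), passed the test. The intervals of their log2 fold changes were -0.09 to 0.08 and -0.04 to 0.13. Sqstm1 and Tax1bp1 thus moved in opposite directions in the same libraries. Sqstm1 kept its call under all 18 alternatives (with depth as a covariate 0.30, adjusted p = 0.00166), and Tax1bp1 lost it only with the upper quartile of values above 0 (-0.11, adjusted p = 0.0693). Nbr1 (0.17, adjusted p = 0.0811) and Bnip3l (0.05, adjusted p = 0.686) were not called with depth as a covariate, and Bnip3l was also not called with no variance trend (adjusted p = 0.0577). Of the 31-base words of Sqstm1, 19.2% also occur in the overlapping Mrnip on the opposite strand, which had mean values of 181 in siCasp8 and 172 in Scr cultures. For Bnip3l the share is 27.9%, with the pseudogene Bnip3l-ps, which is listed at 0.

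Of the 2 tethers that join autophagosomes to lysosomes, Tecpr1 rose, against 19.4% of all tested genes called higher and 20.8% lower. Tecpr1, which binds the ATG12 and ATG5 conjugate at lysosomes, had 2416, 2583, 2242 and 2409.5 in the 4 siCasp8 cultures, against 1915, 2057, 2075 and 2147 in the 4 Scr cultures. The groups did not overlap, a rise of 17.8% (log2 fold change 0.24, SE 0.05, adjusted p = 0.00295), and with depth as a covariate it was not called (0.14, adjusted p = 0.231). Epg5, a tether that binds RAB7 and LC3, averaged 802 ± 30.1 in siCasp8 and 812 ± 35.1 in Scr cultures and did not pass the test, with a log2 fold change of -0.02 (95% interval -0.14 to 0.10).

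Depth was higher in siCasp8 libraries, and 11 of the 17 calls were lost when it was entered in the fit. With estimated depth as a covariate, 4 autophagy genes were called higher and 2 lower, against 1289 higher and 1475 lower over all tested genes. The 4 were Gabarapl1, Sqstm1, Gabarap and Map1lc3b, and the 2 were Atg16l2 and Tax1bp1. Over the 18 alternatives, 3 of the 11 genes called higher kept their call throughout, namely Gabarapl1 (log2 fold changes 0.47 to 0.64), Sqstm1 (0.22 to 0.34) and Map1lc3b (0.17 to 0.29). Of the 6 called lower, 0 did so in limma. The share of all tested genes that kept their call throughout was not computed, so these counts have no background to be read against.

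**Figure D4:**
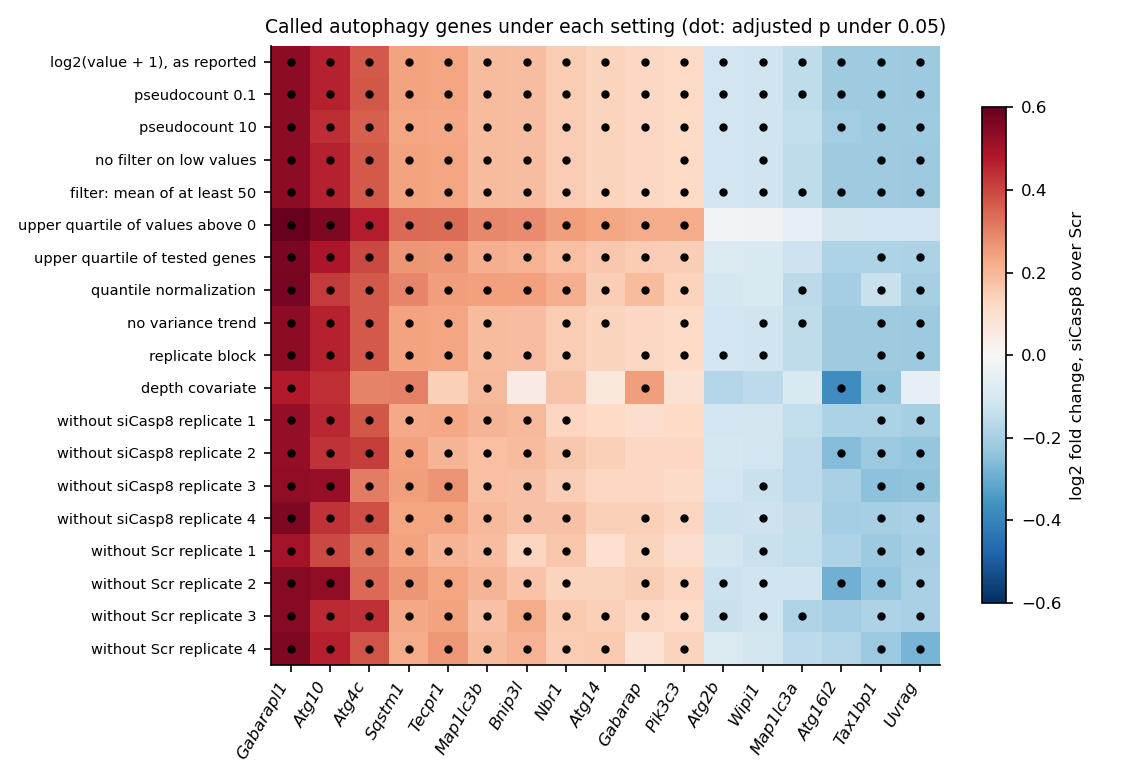
Rows are the main setting and its 18 alternatives, and columns are the 17 called autophagy genes. Colour gives the log2 fold change, siCasp8 over Scr, and a dot marks an adjusted p under 0.05. Gabarapl1, Sqstm1 and Map1lc3b have a dot in every row, and the row with depth as a covariate has 6.

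Genes around the pathway were read from further lists of textbook genes. For comparison with each list, 19.4% of all tested genes were called higher and 20.8% lower. Of the 34 tested genes of upstream nutrient and energy control, 11 rose and 8 fell, and the list's median change was 0.08 on the log2 scale. Rragd, a Rag GTPase that recruits mTORC1 to lysosomes, had 276 ± 76.5 in siCasp8 and 123 ± 21.3 in Scr cultures (log2 fold change 1.13, adjusted p = 3.41e-04), and the AMPK subunit Prkab1 had 4005 ± 152 in siCasp8 and 3076 ± 95.3 in Scr cultures (log2 fold change 0.38, adjusted p = 1.22e-05). Lamtor5, a subunit of the Ragulator complex, was lower at 678 ± 12.8 in siCasp8 and 990.2 ± 46.6 in Scr cultures (log2 fold change -0.54, adjusted p = 6.75e-06), as was Sesn3, a stress-induced inhibitor of mTORC1, at 10171 ± 272 in siCasp8 and 12617 ± 425 in Scr cultures (log2 fold change -0.31, adjusted p = 2.15e-05). Of the 11 tested transcription factors that control autophagy genes, 6 were higher and 3 lower, with a median of 0.20. Mitf, a relative of TFEB, had 312 ± 40.2 in siCasp8 and 202 ± 45.1 in Scr cultures (log2 fold change 0.64, adjusted p = 0.00498), and Ddit3, the gene of CHOP, had 705 ± 61.7 in siCasp8 and 531 ± 50.04 in Scr cultures (log2 fold change 0.41, adjusted p = 0.00191). Lower were Foxo6, a forkhead factor, at 304 ± 12.2 in siCasp8 and 409 ± 28.7 in Scr cultures (log2 fold change -0.42, adjusted p = 8.43e-04) and Atf4, a stress-response factor, at 6385 ± 212 in siCasp8 and 7467 ± 311 in Scr cultures (log2 fold change -0.23, adjusted p = 6.17e-04).

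Of 18 other autophagosome formation genes, 2 were higher and 4 lower, with a median of -0.03. Zfyve1, the omegasome marker DFCP1, had 3206 ± 182 in siCasp8 and 2878 ± 135 in Scr cultures (log2 fold change 0.15, adjusted p = 0.0251), and Wdr45, a WIPI-family gene, had 3335 ± 51.7 in siCasp8 and 3004 ± 152 in Scr cultures (log2 fold change 0.15, adjusted p = 0.0116). In the opposite direction lay its paralogue Wdr45b at 2119.9 ± 167 in siCasp8 and 2586 ± 139 in Scr cultures (log2 fold change -0.29, adjusted p = 0.00220) and the immunity-related GTPase Irgm1 at 5421 ± 139 in siCasp8 and 6212 ± 158 in Scr cultures (log2 fold change -0.20, adjusted p = 6.52e-04). Of 22 selective autophagy receptors and regulators outside the 40 genes, 9 were higher and 2 lower, with a median of 0.09. Among the higher genes, Retreg1, a receptor for endoplasmic reticulum, had 3934 ± 179 in siCasp8 and 2799 ± 143 in Scr cultures (log2 fold change 0.49, adjusted p = 5.74e-06). Both lower genes were receptors, Atl3 for endoplasmic reticulum at 11621 ± 439 in siCasp8 and 16753 ± 759.6 in Scr cultures (log2 fold change -0.53, adjusted p = 9.07e-07) and Bcl2l13 for mitochondria at 4127 ± 284 in siCasp8 and 4806 ± 443 in Scr cultures (log2 fold change -0.22, adjusted p = 0.0188).

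Of 25 autophagosome-lysosome fusion genes, 7 were higher and 5 lower, with a median of 0.01. The RAB7 effector Rilp had 163 ± 14.01 in siCasp8 and 121 ± 9.93 in Scr cultures (log2 fold change 0.42, adjusted p = 0.00958), and the SNARE gene Vamp8 had 2020.0 ± 45.6 in siCasp8 and 1708 ± 81.99 in Scr cultures (log2 fold change 0.24, adjusted p = 9.68e-04). The SNARE partner of Vamp8, Snap29, was lower at 1358 ± 82.9 in siCasp8 and 1651 ± 86.1 in Scr cultures (log2 fold change -0.28, adjusted p = 0.00154), and so was the GTPase Rab2a at 5164 ± 307 in siCasp8 and 6224 ± 307 in Scr cultures (log2 fold change -0.27, adjusted p = 8.12e-04). Of 24 lysosomal genes, 17 were higher and 0 lower (0 also at an unadjusted p under 0.05 in limma), with a median of 0.16. The proton pump subunit Atp6v0a1 had 4694 ± 262 in siCasp8 and 3528 ± 226 in Scr cultures (log2 fold change 0.41, adjusted p = 6.42e-05), and Hexa, a lysosomal hexosaminidase subunit, had 5437 ± 129 in siCasp8 and 4105 ± 216 in Scr cultures (log2 fold change 0.41, adjusted p = 9.54e-06). Over all tested genes 19.4% were higher and 20.8% lower, with a median of 0.00. The lysosomal list had 22 genes higher with the upper quartile of values above 0 and 12 higher with depth as a covariate. It had 0 lower in both. Over all 14154 tested genes the first setting gave 4471 higher and 1665 lower, and the second 1289 higher and 1475 lower.
The same 2 settings gave 18 higher and 6 lower, and 3 higher and 5 lower, for upstream control. For the transcription factors they gave 8 higher and 2 lower, and 3 higher and 1 lower, and for the other formation genes 6 higher and 1 lower, and 0 higher and 2 lower. The receptors outside the 40 genes had 15 higher and 1 lower, and 4 higher and 1 lower, and the fusion genes 9 higher and 3 lower, and 2 higher and 2 lower.

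**Figure D5:**
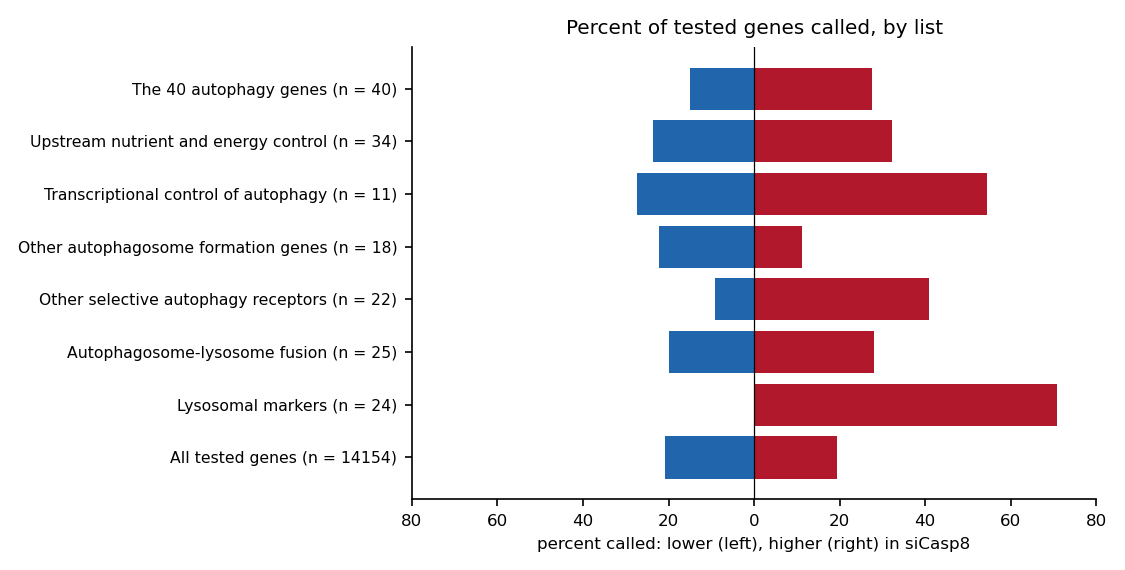
Bars are the percent of tested genes called lower (left of 0) and higher (right of 0) in siCasp8 against Scr. They are drawn for all tested genes, for the 40 autophagy genes together and for each neighbouring list. All tested genes stand at 20.8% lower and 19.4% higher, and the lysosomal list has no bar on the left.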

How the data were processed

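Poly-A RNA of 8 AML12 cultures was sequenced, 4 siCasp8 and 4 Scr, grouped by the titles in the labels. Per the submitters' processing notes bcl2fastq 2.19, kallisto 0.44.0, sleuth, DESeq2 and the builds GRCh38 and GRCm38 were used, with no role or order given. The table the authors deposited holds a normalized signal per gene symbol, per its name kallisto estimates normalized with DESeq2. How transcripts were summed to genes is not stated in the sources used here. Values summed to 44.1 to 45.6 M per library, so depth was estimated from the spacing of low values. Of the values worth at most 20.5 reads, 63.0% to 75.0% were whole to within 0.1 read. Whole reads were therefore not recovered and no count test was used. A line with no symbol held 0.0481% to 0.0631% of each library and was left out. Of the named genes, 12681 were at 0 in all libraries.

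Genes with a mean of at least 10 were tested with limma 3.58.1 in R 4.3.3 (moderated test with a variance trend, log2(value + 1), two-sided, Benjamini-Hochberg adjustment over 14154 genes). On this scale changes of low genes are understated. Values of a group are means ± SD over 4 libraries. The fit was checked on simulated data with changes larger than most of those called here and with no depth difference. That check therefore does not bear on small changes or on depth. Alternatives covered pseudocount, filter, scaling, trend, a replicate block, depth as a covariate and leaving out each library. All 40 genes are named, with Casp8, the 2 largest rises and 2 largest falls among called genes of each further list, Alb, Hnf4a and the highest marker of each other cell type. A gene that this rule gives is not reported here, and Krt8 and Apob were named after their values were seen. The autophagy genes and lists were chosen with earlier results of these data known. Positions, lengths and 31-base words came from GENCODE vM21 (GRCm38), and start windows from RefSeq.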

Additional observations from a re-analysis of the deposited data

Results flagged for a closer look

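In 82 groups of 4 libraries (the autophagy genes and Casp8, each in siCasp8 and in Scr), the highest or lowest value was set against the other 3, and it stood apart by more than 0.829 of the group's range in 3. Chance alone gives about 1 such group in 20. Atg9a had 2165 in siCasp8 replicate 3, under the other siCasp8 cultures at 2337 to 2356, and the gene was not called. Atg16l2 had 1032 in siCasp8 replicate 2, above the other siCasp8 cultures at 894 to 916. Uvrag had 2348 in Scr replicate 4, under the other Scr cultures at 2779.6 to 2807, and without that library its log2 fold change was -0.28. That library was also the deepest Scr library, at 51.8 M reads, within the siCasp8 range of 50.5 to 57.1 M reads. With depth as a covariate in limma the Uvrag change was -0.05 (adjusted p = 0.710). The part of depth in this value was not tested.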

How the results depend on the processing

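Scaling and depth moved the counts most. With the upper quartile of values above 0, 4471 genes were higher and 1665 lower, and 19 autophagy genes higher and 0 lower (2 lower at an unadjusted p under 0.05 in limma). With depth as a covariate, 1289 were higher and 1475 lower, and 4 autophagy genes higher and 2 lower. Autophagy genes called lower numbered 2 with the upper quartile of tested genes, 3 with quantile normalization and 3 with no filter. Over all genes these 3 settings gave 2535, 2672 and 2741 lower. With no filter Gabarap, Atg14, Atg2b, Atg16l2 and Map1lc3a were lost. With no variance trend 9 autophagy genes were higher and 4 lower (2493 and 2626 over all), with Gabarap, Bnip3l, Atg2b and Atg16l2 lost. Leaving out 1 library gave 8 to 11 autophagy genes higher and 2 to 6 lower: 2 lower without siCasp8 replicate 1 or Scr replicate 4, and 3 without siCasp8 replicate 2, 3 or 4 or Scr replicate 1. Over all genes these fits gave 2264 to 2751 higher and 2536 to 2968 lower. With a replicate block, 10 autophagy genes were higher and 5 lower (2868 and 3152 over all): Ulk1 was added, and Atg14, Atg16l2 and Map1lc3a were lost. Deviations of same-numbered libraries correlated at 0.044 to 0.169, under 0.1 in 3 of the 4 pairs, so the numbers were not taken as pairs, although each library correlated best with its own number. No called gene changed sign, Casp8 stayed lower and called, and the causes were not tested. A count test with edgeR was planned for whole reads and was not run. Depth differs between the groups, which limits what the covariate fit can separate, and the smallest changes called were of about 8%.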
